A study of Mus musculus with 12 samples.

Results

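Glycocholic acid (GCA) was compared with taurocholic acid (TCA) in mouse bone marrow neutrophils. The comparison used the 3 samples labelled GCA and the 3 samples labelled TCA, 6 of the 12 RNA-seq samples of the series, and it covered 16761 of 29737 genes after genes with low counts were removed. Both compounds hold the same cholate core, and they differ in the amino acid joined to its side chain, which is glycine in GCA and taurine in TCA. The samples were chosen by their labels alone, so no measured value entered the choice.

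All neutrophils came from the bone marrow of wild-type mice. The labels describe Ly6G+ cells sorted with magnetic beads, while the study's methods describe a density medium followed by an enrichment kit for neutrophils, and the number of mice was not given in the sources used here. The study's methods describe its purchased mice as female C57BL/6 animals aged 4 to 6 weeks, without saying which of them gave these cells. The cells were cultured for 24 h in RPMI medium with fetal bovine serum. They received 200 μM TCA, 200 μM GCA, or PBS as the vehicle. A further group received tauro-beta-muricholic acid (Tβ-MCA), another taurine-conjugated bile acid, at 10 μM by the labels and 200 μM by the study's methods. The replicates are numbered 3, 4 and 5 with each bile acid and 3, 5 and 6 with PBS. Nothing in the sources says whether the same number marks the same mouse, so a p-value measured the spread between these samples, which may be technical.

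Bile acids are made from cholesterol in the liver and joined to glycine or taurine before secretion into bile. Mice conjugate mostly with taurine, and humans mostly with glycine. Conjugated bile acids act on cells through membrane receptors such as TGR5 (gene Gpbar1) and S1PR2, and through the nuclear receptor FXR (gene Nr1h4), and as charged molecules they usually need carriers to enter a cell. Neutrophils are short-lived granulocytes that kill microbes with granule enzymes and an oxidative burst, and that release chemokines such as CXCL2.

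Markers of neutrophils, the labelled cell type, were abundant as a sum, but single markers differed widely. S100a9 was at 19929 to 25022 CPM with TCA and 20328 to 22765 CPM with GCA. Stfa2 was at 0.677 to 1.33 CPM with TCA and 0.156 to 1.13 CPM with GCA. Ly6g was detected in every sample, at 11.7 to 19.6 CPM (counts per 1000000 counts of the library), and the 20 neutrophil markers summed to 49013 to 60159 CPM with TCA and 46418 to 57655 CPM with GCA. Markers of other cells were also present in all 6 samples. The 23 monocyte and macrophage markers summed to 4850 to 6042 CPM with TCA and 4018 to 5794 CPM with GCA, the lowest being GCA number 4. Among them Fn1 was at 1042 to 2132 CPM, above Ly6g, and Cd209a at 0.344 CPM or less. The 13 eosinophil markers summed to 181 to 295 CPM with TCA and 154 to 321 CPM with GCA. The 20 T and NK cell markers reached at most 17.0 CPM. Total counts lay between 33188881 and 41375925 with TCA and between 34205621 and 38943864 with GCA. Even counts outnumbered odd ones, making up 67.4% to 69.7% of the counts from 1 to 100 in these 6 samples. In such bulk samples, fewer cells of a type and less RNA per cell cannot be told apart.

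GCA number 4 had the most genes above all other GCA and TCA samples, although it was not the GCA sample farthest from its own replicates. Number 3 was at least 2-fold above the mean of the 2 other GCA samples, taken on the log2 scale, in 29 genes and below it in 36. The counts were 27 and 11 for number 4 and 9 and 6 for number 5. When the TCA samples were included, the order of the GCA samples changed. In 51 genes number 4 was at least 1.5-fold above each of the 5 other samples, and in 42 genes at least 1.5-fold below, whereas the counts for the other GCA samples were 5 and 32 for number 3 and 5 and 12 for number 5. Of the TCA samples, number 3 had 11 and 71 such genes. All GCA and TCA samples were also given a score along the Tβ-MCA change. It does not measure what share of a sample's differences lies in that direction. The score used 407 genes that differed at least 2-fold between PBS and Tβ-MCA numbers 3 and 4, with 0 at the PBS mean and 1 at the mean of those Tβ-MCA samples. GCA number 4 lay at 0.337, while GCA numbers 3 and 5 lay at 0.072 and 0.009. The TCA samples lay at 0.072, 0.002 and -0.008 for numbers 3, 4 and 5. Tβ-MCA number 5 lay at 0.245, so on this score GCA number 4 was nearer to it than to the other GCA samples. For many genes named below, values without number 4 of both groups are given as well.

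**Figure D1:**
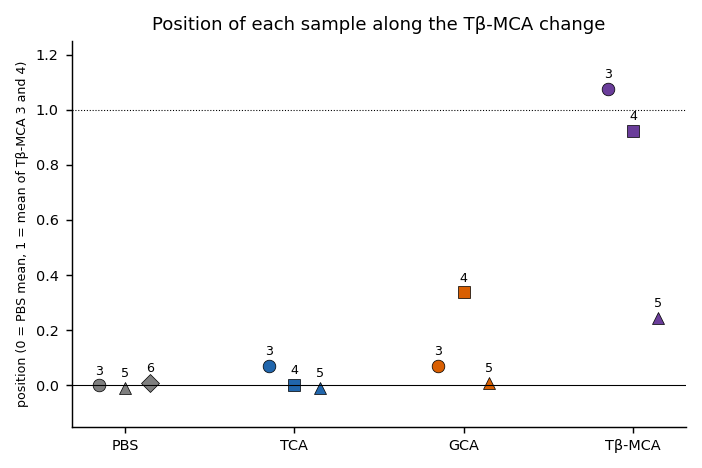
Each point is 1 sample and its label is the replicate number; the vertical axis is the position along the Tβ-MCA change, a unitless score with 0 at the PBS mean and 1 (dotted) at the mean of Tβ-MCA numbers 3 and 4. GCA number 4 sits at 0.337, above the TCA samples, which lie between -0.008 and 0.072.

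Most genes were at similar levels with GCA and TCA. The median gene differed by 0.088 on the log2 scale in either direction. The 95% interval of the difference lay within 2-fold for 80.4% of the genes tested and within 1.5-fold for 63.5%. Among genes of at least 100 CPM, 98.1% had an interval within 1.5-fold, and among genes of 10 to 100 CPM this share was 96.0%. Below 1 CPM the share was 0.309%, so for weakly expressed genes the 3 samples a side could not show whether the compounds acted alike.

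At the thresholds of the study, an unadjusted p under 0.05 and at least a 2-fold change, 31 genes were higher with GCA and 43 lower, which together is 0.442% of the genes tested (0.185% and 0.257%). No gene had an adjusted p under 0.05 over all 12 samples in the quasi-likelihood test of edgeR, after Benjamini and Hochberg, and DESeq2 and limma gave 0 as well. At any fold, 412 genes (2.46%) had an unadjusted p under 0.05, 214 higher (1.28%) and 198 lower (1.18%). This share was under the 0.05 that would be expected to pass if no gene differed. The 3 GCA samples lay wholly above the TCA samples in 638 genes (3.81%) and wholly below in 703 genes (4.19%). With 3 samples against 3, an exact permutation test of 1 gene cannot give a p under 0.1. A lack of overlap in a single gene is therefore a description and not a test. Of the 74 genes at the thresholds, 70 had a mean level under 1 CPM, and without number 4 of both groups all 74 kept their direction while 31 still met the thresholds. Deviations of same-numbered GCA and TCA samples from their group means correlated at 0.517 for number 3 and 0.322 for number 5. For number 4 the correlation was 0.169, below the highest among different-numbered samples (0.216). A second model held the number as a block. This raised the count at an unadjusted p under 0.05 to 718 (4.28%) and left the adjusted count at 0. When only the 6 samples entered the blocked model, 5 of 16084 genes (0.0311%) had an adjusted p under 0.05 in edgeR's quasi-likelihood test. They were Egr1, Fos, Dusp1, Fstl1 and Plxna1.

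**Figure D2:**
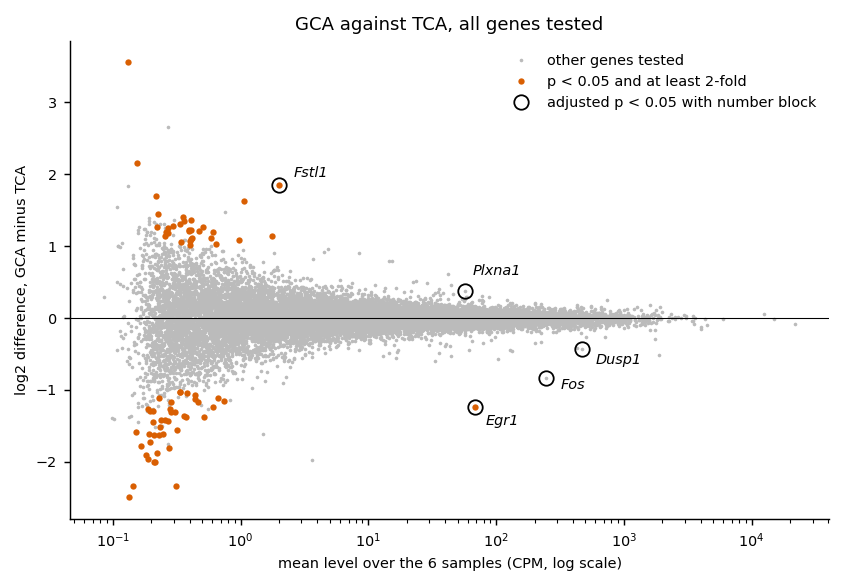
Each point is a gene, with its mean level over the 6 samples in CPM on a log axis and its log2 difference, GCA minus TCA, on the vertical axis; orange marks an unadjusted p under 0.05 with at least a 2-fold change, and rings mark an adjusted p under 0.05 in the 6-sample model with the number block. Most of the 74 orange genes lie below 1 CPM, while the ringed Egr1, Fos and Dusp1 lie far to the right of them and below 0.

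The clearest difference between the compounds was in immediate early genes, which cells switch on within minutes of a stimulus without new protein synthesis. Egr1, a zinc finger transcription factor, was at 74.7, 121 and 93.5 CPM in TCA numbers 3, 4 and 5 and at 39.0, 43.3 and 40.6 CPM in GCA numbers 3, 4 and 5. Every GCA sample lay below every TCA sample. Egr1 was 2.35-fold higher with TCA, a log2 difference of -1.23 (GCA minus TCA, 95% interval -1.96 to -0.51, unadjusted p = 0.00388). In the 6-sample model with the number block the difference was -1.21 with an SE of 0.08 (adjusted p = 2.3e-07, edgeR's quasi-likelihood test). Without number 4 it was -1.07 with an unadjusted p of 0.0323.

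Fos, a subunit of the AP-1 transcription factor, followed the same order. It was at 262, 384 and 299 CPM with TCA and at 150, 180 and 199 CPM with GCA, so the groups did not overlap. The log2 difference was -0.84 (95% interval -1.37 to -0.30, unadjusted p = 0.00628), or 1.79-fold, and it was -0.68 without number 4 (unadjusted p = 0.0465). The blocked 6-sample model gave an adjusted p of 6.61e-05 in edgeR's quasi-likelihood test. Dusp1, a phosphatase that switches off p38 and other MAP kinases, was at 601, 512 and 498 CPM with TCA and at 400, 360 and 432 CPM with GCA. Its samples did not overlap either, with a log2 difference of -0.43 (95% interval -0.73 to -0.14, unadjusted p = 0.00783) and an adjusted p of 0.00165 in the blocked 6-sample model of edgeR. In that model fitted without number 3, 4 or 5 in turn, Egr1, Fos and Dusp1 had an adjusted p under 0.05 each time. These fits were added after seeing the data and kept only 2 pairs. With the block over all 12 samples, Egr1, Fos and Dusp1 each had an adjusted p of 0.986 in edgeR's quasi-likelihood test. Without number 4 and without the block, Dusp1 differed by -0.40 (unadjusted p = 0.0437, the same test).

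Ier2, a nuclear protein of the early response, was at 81.6, 67.7 and 64.4 CPM with TCA and at 46.6, 51.0 and 59.3 CPM with GCA. The difference was larger in number 3 than in number 5, whose samples nearly met. The log2 difference was -0.44 with an unadjusted p of 0.00077 in the 12-sample model, the lowest of the early genes there, and the adjusted p was 0.688 in the blocked 6-sample model of edgeR. Junb, a partner of Fos, was at 157, 151 and 136 CPM with TCA and at 91.1, 100 and 134 CPM with GCA, a log2 difference of -0.45 with an unadjusted p of 0.101. Fosb was at 0.931, 9.02 and 7.39 CPM with TCA and at 2.08, 0.802 and 1.56 CPM with GCA, so that number 3 went against numbers 4 and 5 (log2 difference -1.97, unadjusted p = 0.0502). Without number 4 and without the block, the log2 differences were -0.46 for Ier2, -0.38 for Junb and -1.20 for Fosb. Their unadjusted p were then 0.00616, 0.303 and 0.305 in edgeR's quasi-likelihood test. Zfp36, which codes for the mRNA decay factor tristetraprolin, was at 153, 165 and 144 CPM with TCA and at 91.0, 105 and 141 CPM with GCA.

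**Figure D3:**
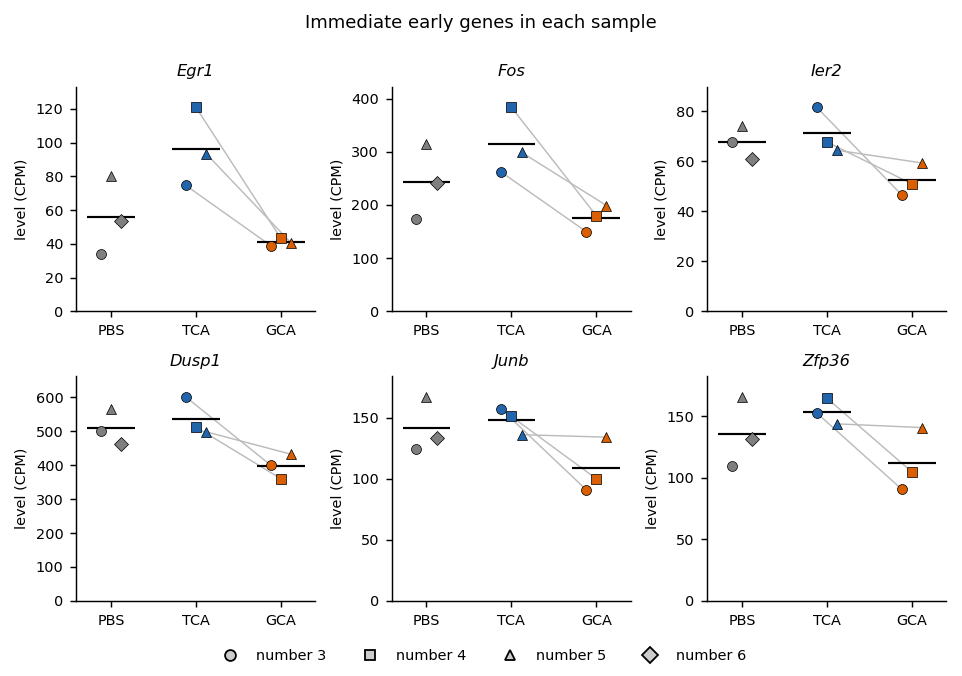
Level in CPM of 6 early genes in each PBS, TCA and GCA sample; point shapes give the replicate number, black bars the group means, and grey lines join same-numbered TCA and GCA samples. All lines fall from TCA to GCA, most steeply for Egr1, where the GCA samples lie between 39.0 and 43.3 CPM.

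The whole list of 33 early factors was not uniform. The median log2 difference was -0.08, beside 0.0 over all genes, and 23 of the 33 were below 0. At an unadjusted p under 0.05, 4 were lower (Egr1, Fos, Ier2 and Btg2) against 1.18% of all genes, and 1 was higher. The one higher gene was Ier5l, which had 8 to 10 counts with TCA and 14 to 26 with GCA. With the block, 7 were lower and 2 higher (2.07% and 2.21% of all genes), and without number 4 the unblocked counts were 3 lower and 1 higher. In 7 genes the GCA samples lay wholly below the TCA samples, against 4.19% of all genes. In Egr3 and Ier5l they lay wholly above, against 3.81% of all genes. The highest member per length, Zfp36l2, differed by -0.04 (95% interval -0.21 to 0.13). Klf2 and Srf also lay within 1.5-fold, at 0.05 and 0.07.

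The 2 compounds were then set beside the vehicle, with the caution that both comparisons use the same PBS samples. Egr1 was at 33.9, 80.5 and 53.3 CPM in PBS numbers 3, 5 and 6, between the 2 bile acids and overlapping both. Its log2 difference from PBS was 0.79 with TCA (unadjusted p = 0.0341) and -0.45 with GCA (unadjusted p = 0.192). Fos was at 174, 315 and 242 CPM with PBS, and its differences were 0.37 with TCA and -0.47 with GCA, with unadjusted p of 0.15 and 0.0797. Dusp1 was at 499, 566 and 463 CPM with PBS, near TCA and above GCA, with differences of 0.08 for TCA and -0.36 for GCA. Ier2 differed by 0.08 with TCA and by -0.37 with GCA (unadjusted p = 0.48 and 0.00336). Over all genes, 78 met the thresholds for TCA against PBS (0.465%) and 89 for GCA against PBS (0.531%), and none had an adjusted p under 0.05 in edgeR's quasi-likelihood test in either comparison.

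The promoters of Fos and Dusp1 are shown as examples of the early genes that were lower with GCA; the promoter of Egr1 was not used here. They are RefSeq sequences of GRCm38.p6, 250 bases before to 50 after the start of the gene, and capitals mark TGACG, on either strand, the short site that makes up the cyclic AMP response element (CRE), the DNA element bound by CREB.
Fos (chr12:85473640-85473939, plus strand): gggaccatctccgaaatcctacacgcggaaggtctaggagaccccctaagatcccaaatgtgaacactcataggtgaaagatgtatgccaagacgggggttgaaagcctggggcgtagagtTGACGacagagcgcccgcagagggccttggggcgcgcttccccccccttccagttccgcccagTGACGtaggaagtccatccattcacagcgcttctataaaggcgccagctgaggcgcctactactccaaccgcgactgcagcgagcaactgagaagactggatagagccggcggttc
Dusp1 (chr17:26508423-26508722, minus strand): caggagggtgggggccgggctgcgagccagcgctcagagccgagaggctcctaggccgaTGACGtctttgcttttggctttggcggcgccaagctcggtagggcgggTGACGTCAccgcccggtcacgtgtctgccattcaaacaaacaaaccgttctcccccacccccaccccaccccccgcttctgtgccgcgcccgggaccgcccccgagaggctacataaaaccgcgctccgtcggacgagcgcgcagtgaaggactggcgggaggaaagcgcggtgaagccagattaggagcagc
Dusp1 held 3 short sites, of which a pair on opposite strands overlapped in 1 whole CRE, TGACGTCA, and Fos held 2 short sites and no whole CRE. Fosb and Junb held 1 short site each and no whole CRE. Of 27025 mouse promoters of this length, 21.0% held the short site and 1.88% the whole CRE. Among the early genes, sites were counted for Fos, Dusp1, Fosb and Junb alone, all of them lower with GCA on average. Early genes that did not differ were not included, so these sites cannot be weighed against those shares. The CArG box of serum response factor was in neither the Fos nor the Dusp1 window and in 1.57% of all. Sequence beyond the windows was not searched, so a site farther away would be missed. Of the wider list of 37 cyclic AMP response genes, 1 was lower at an unadjusted p under 0.05 (Dusp1) and none was higher, with a median log2 difference of 0.0, and 2 were lower and 1 higher with the block. Crem and Pde4b differed by 0.01 and 0.02, and Per1 by 0.00.

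Counts in the inflammatory lists are read beside all genes, of which 1.28% were higher and 1.18% lower at an unadjusted p under 0.05. Of 34 cytokines and chemokines tested, 1 was lower at an unadjusted p under 0.05 and none higher, with a median of -0.11 and 21 below 0. The lower gene was Osm, a cytokine of the IL-6 family, at 21.3, 19.9 and 17.4 CPM with TCA and 14.3, 10.9 and 16.9 CPM with GCA. Its samples did not overlap, and the log2 difference was -0.48 (unadjusted p = 0.00908), falling to -0.31 without number 4 (unadjusted p = 0.0972). Cxcl2, a neutrophil chemoattractant, was lower with GCA in each same-numbered pair, at 38.9, 61.2 and 55.9 CPM against 29.9, 33.1 and 45.2 CPM, but the groups overlapped and the unadjusted p was 0.247. In the blocked 6-sample model of edgeR the Cxcl2 difference was -0.53 with an SE of 0.09 (unadjusted p = 4.07e-05, adjusted p = 0.0545), and the adjusted p was 0.0885 without number 4 and 0.0086 without number 5. Ccl6, the highest of the list per length, differed by -0.34 with an interval of -1.45 to 0.76. Its samples also differed within a group, at 147, 161 and 229 CPM with GCA. Of 47 receptors for microbial patterns and chemoattractants, 36 were below 0 and the median was -0.09, yet only Adora2a (0.65, unadjusted p = 0.014) passed, and it was higher. With the block over 12 samples, 4 receptors were lower and 1 higher, and 2 cytokines were lower and 1 higher (2.07% and 2.21% of all genes). Among 33 NF-kB subunits, inhibitors and targets no gene passed, or 1 higher and 1 lower with the block, and 31 had an interval within 2-fold. Among 45 interferon-stimulated genes 1 was higher, Dhx58, by 0.19.

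Genes of immune suppression were followed by the study in neutrophils. None of 38 tested passed an unadjusted p under 0.05, beside 2.46% of all genes, and 1 was lower with the block. The median was -0.03, and 33 had an interval within 2-fold. Cd274, which codes for PD-L1, differed by 0.08 (95% interval -0.46 to 0.62). Nos2, the inducible nitric oxide synthase, was at 1.86, 1.52 and 2.03 CPM with TCA and at 2.03, 1.12 and 2.39 CPM with GCA, a difference of 0.04. Arg1, the arginase of suppressive myeloid cells, had 3, 5 and 18 counts with TCA and 3, 4 and 1 with GCA, too few for the filter. Without number 4 it entered the test, where it was lower with GCA (log2 difference -2.37, unadjusted p = 0.0297), while TCA number 5 alone was high. Cxcl10 had 10 to 24 counts in these samples and differed by -0.13 with an interval of -1.04 to 0.79. Ncf1, of the oxidase complex and the highest of the list per length, differed by -0.04 with an interval of -0.21 to 0.12.

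Of 50 genes around the p38 kinases, 2 were higher and 1 lower at an unadjusted p under 0.05 (1.28% and 1.18% of all genes), and with the block 1 was higher and 4 lower. Mapk14, the main p38 kinase, differed by 0.07 (95% interval -0.06 to 0.21) and its activator Map2k3 by 0.06 (-0.12 to 0.23), so both lay within 1.5-fold. Map2k6, the other activator, was at 0.558, 0.338 and 0.650 CPM with TCA and at 0.676, 3.44 and 0.674 CPM with GCA. GCA number 4 alone was high. The log2 difference of 1.63 (unadjusted p = 0.0433) fell to 0.16 without number 4 (unadjusted p = 0.754). In Tβ-MCA numbers 3, 4 and 5 Map2k6 was at 7.99, 6.40 and 2.92 CPM. The second higher gene, Dusp8, a MAP kinase phosphatase, was steady within each group, at 1.05 to 1.28 CPM with TCA and 1.76 to 1.80 CPM with GCA (log2 difference 0.57, unadjusted p = 0.0214).

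In several other genes GCA number 4 was the highest or lowest of the 6 samples. Fstl1, a secreted glycoprotein, was at 0.434, 1.21 and 0.921 CPM with TCA and at 0.732, 6.59 and 2.18 CPM with GCA. It was higher in each same-numbered pair, with a log2 difference of 1.70 and an adjusted p of 0.00445 in the blocked 6-sample model of edgeR, and without number 4 the values were 1.06 and 0.94. Plxna1, a semaphorin receptor, was at 38.8, 56.1 and 54.5 CPM with TCA and at 46.8, 82.5 and 64.7 CPM with GCA, higher in each same-numbered pair. In the same model of edgeR its log2 difference was 0.36 (adjusted p = 0.025), and without number 4 it was 0.26 (unadjusted p = 0.00197, adjusted p = 0.785). Rassf6 was at 4.33 CPM and Arhgap22 at 2.29 CPM in GCA number 4, while the other 5 samples held at most 1.71 and 0.882 CPM. Without number 4 the log2 difference of Rassf6 went from 1.14 to 0.61 and that of Arhgap22 from 1.09 to 0.18. Ccr2, the receptor for CCL2 on monocytes, was at 44.9, 46.2 and 46.3 CPM with TCA and at 43.7, 24.9 and 38.5 CPM with GCA, and at 2.03, 2.70 and 29.2 CPM with Tβ-MCA. Irf8, a transcription factor of the monocyte lineage, was at 60.3 CPM in GCA number 4 and between 77.0 and 81.2 CPM in the other 5 samples.

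**Figure D4:**
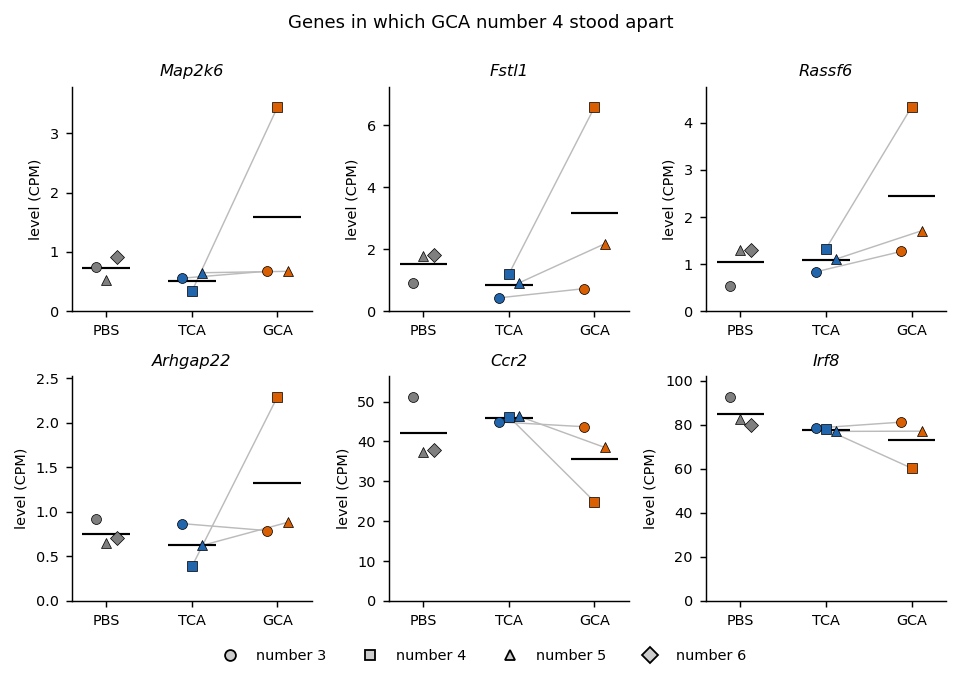
Level in CPM of 6 genes, chosen after their values were seen, in each PBS, TCA and GCA sample, with the replicate number as the point shape, group means as black bars and grey lines between same-numbered samples. In the top row and in Arhgap22 the GCA mean is raised by number 4 alone or mostly, and in Ccr2 and Irf8 number 4 is the lowest sample.

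The summed monocyte markers were lowest in GCA number 4, as given above. All 23 were tested, 20 were below 0, none passed an unadjusted p under 0.05, and their median was -0.15, which became 0.01 without number 4. Csf1r and Mrc1 differed by 0.0 with all samples. The neutrophil markers had a median of -0.09 with 19 of 20 below 0, and -0.08 without number 4. Only Stfa1 was lower at an unadjusted p under 0.05 without the block. With the block, 5 neutrophil markers were lower, Cxcr2, Mmp8, S100a8, Stfa1 and Stfa2, beside 2.07% of all genes. The part of cell composition in the differences above was not tested. S100a9, the marker highest per length, differed by -0.08 (95% interval -0.28 to 0.11).

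Of 41 listed receptors and carriers for bile acids with counts, 32 were tested, and 29 of these had an interval within 2-fold. At an unadjusted p under 0.05, 1 was higher and none lower (1.28% and 1.18% of all genes), and the median was -0.08, or -0.01 without number 4. Gpbar1 had at most 2 counts in any of the 6 samples and Nr1h4 at most 2, below the 3 counts taken as the detection limit of a sample. Neither transcript was thus detectable in these 6 samples, while Gpbar1 had 4 counts in PBS number 6. The study blotted TGR5 protein in mouse neutrophils given Tβ-MCA and reported no significant change, which these RNA counts do not address. S1pr2 was at 7.01, 5.34 and 4.98 CPM with TCA and at 6.39, 6.73 and 7.21 CPM with GCA, overlapping (log2 difference 0.23, 95% interval -0.08 to 0.55). The gene that passed was Nr1h3, which codes for the oxysterol receptor LXR alpha, at 2.64, 2.88 and 3.11 CPM with TCA and 4.17, 3.78 and 4.49 CPM with GCA. All GCA samples were above all TCA samples, with a log2 difference of 0.53 (unadjusted p = 0.0217). Fpr2, a formyl peptide receptor and the highest of the list per length, differed by -0.15 with an interval of -0.48 to 0.17. Slc10a1, the bile acid carrier of hepatocytes, had at most 47 counts and differed by -0.15 with an interval of -0.77 to 0.48.

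Since the compounds differ in glycine and taurine, genes that handle these amino acids were examined as 2 lists. All 17 taurine genes tested had an interval within 2-fold, and the median was 0.01. Slc6a6, the taurine transporter and the highest of the list per length, was at 427, 447 and 437 CPM with TCA and at 446, 509 and 510 CPM with GCA. The lowest GCA sample was just below the highest TCA sample. The log2 difference was 0.16 (95% interval 0.01 to 0.31, unadjusted p = 0.038) and 0.15 without number 4 (unadjusted p = 0.132), and PBS lay at 463 to 502 CPM, within the range of GCA. Mpst, a sulfur transferase of cysteine breakdown, was the other of 2 genes to pass, both higher (1.28% of all genes), at 13.1 to 14.2 CPM with TCA and 15.9 to 17.0 CPM with GCA. Csad, which makes hypotaurine, differed by 0.04 (-0.38 to 0.46). Baat, the enzyme that joins amino acids to bile acids, had at most 2 counts.

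None of 30 glycine and serine genes tested passed an unadjusted p under 0.05, and the median was 0.03. Shmt1 and Shmt2, which convert serine to glycine, differed by 0.25 (-0.10 to 0.60) and 0.02 (-0.23 to 0.27). The 3 GCA samples of Shmt1, at 7.01, 7.16 and 6.69 CPM, lay above the TCA samples at 5.61, 6.53 and 5.41 CPM. Slc6a9, the glycine transporter GlyT1, had 16 to 35 counts and an interval of -0.56 to 1.31, which left a 2-fold difference possible. Alas1, which uses glycine to start heme synthesis and was the highest of the list per length, differed by -0.04 (-0.23 to 0.15).

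Metabolic, stress and survival lists had medians near 0. Of 40 genes of cholesterol and fatty acid synthesis 1 was higher, Lss, the lanosterol synthase, by 0.28 (unadjusted p = 0.0155), and the median was 0.06, or 0.01 without number 4. Among 43 genes of the unfolded protein and amino acid response Gdf15, a stress cytokine, was higher by 0.53 (unadjusted p = 0.047), and the median was -0.01. None of 32 NRF2 antioxidant genes passed, or 1 higher with the block, and Fth1, the ferritin heavy chain, differed by 0.15 (-0.16 to 0.45). In the list of 33 BCL2 family and death genes Mcl1, which protects neutrophils from apoptosis, was lower, at 589, 632 and 644 CPM with TCA and 515, 562 and 588 CPM with GCA. The groups were just apart, and the log2 difference was -0.16 (95% interval -0.32 to -0.01, unadjusted p = 0.037). Without number 4 it was again -0.16, with an unadjusted p of 0.132 in edgeR's quasi-likelihood test. None of 39 cell cycle genes passed, or 2 higher with the block, and Mki67, a marker of dividing cells, differed by 0.01. It was abundant, at 1787 to 1998 CPM with TCA and 1765 to 2177 CPM with GCA, far above Ly6g. Which cells held Mki67 was not tested. Among granule genes Cst7 was lower by 0.38 on the log2 scale and Cyba was higher by 0.13, while Ngp differed by -0.01.

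**Figure D5:**
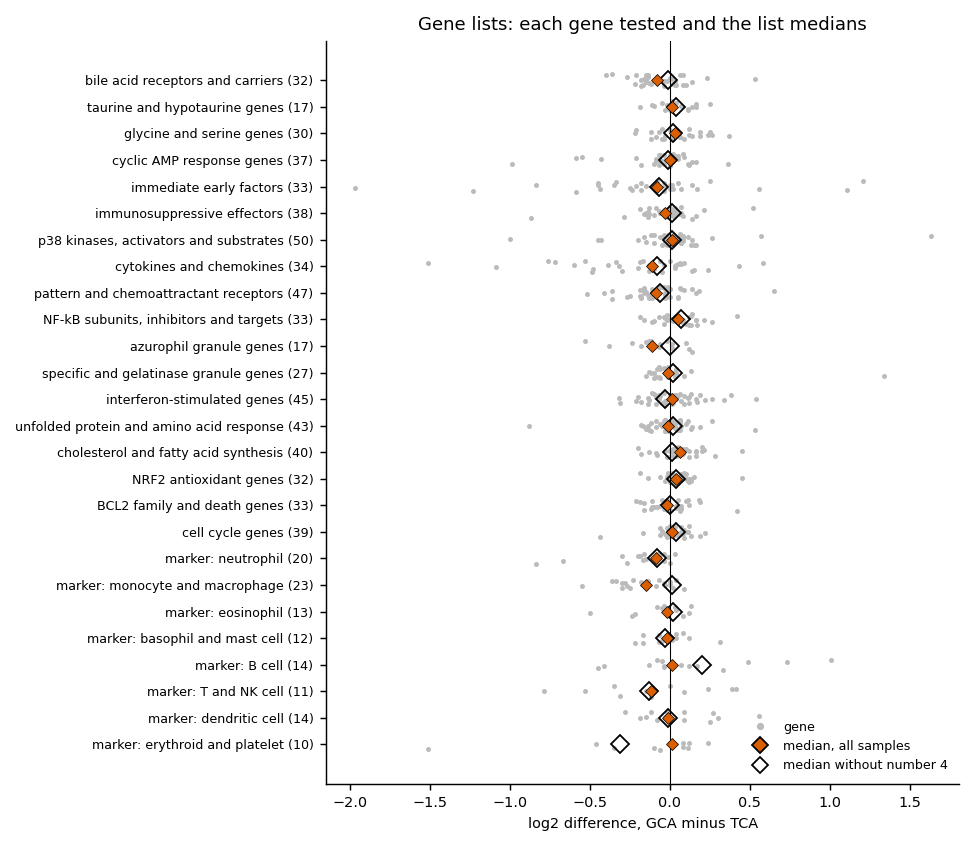
Each grey point is the log2 difference, GCA minus TCA, of 1 gene in the list named at the left with its number of genes tested; orange diamonds are list medians over all samples and open diamonds the medians without number 4 of both groups. The medians lie between -0.15 and 0.06 with all samples, and the monocyte list is at -0.15, moving to 0.01 without number 4.

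Among the genes of lowest p with the number block, some differed by little with a small spread within each group. Il1rap, the accessory chain of the IL-1 receptor, was at 22.7, 22.1 and 22.5 CPM with TCA and at 18.5, 18.2 and 18.9 CPM with GCA, a log2 difference of -0.28 (unadjusted p = 0.00272). The spread within each group was far below the gap between them, and the difference was -0.27 without number 4. Tusc1 was at 6.17, 6.04 and 6.36 CPM with TCA and at 8.06, 9.02 and 8.09 CPM with GCA, and PBS lay at 7.59 to 8.20 CPM. Its log2 difference was 0.44 (unadjusted p = 0.000753), and against PBS it was -0.34 for TCA and 0.10 for GCA. Osbpl3, an oxysterol-binding protein, had the lowest p with the block, 0.000366. It was at 29.7, 35.0 and 36.9 CPM with TCA, at 35.0, 50.2 and 44.5 CPM with GCA and at 49.3 to 49.7 CPM with PBS. All TCA samples lay below the vehicle, as did GCA numbers 3 and 5. Without number 4 the log2 difference of Osbpl3 went from 0.35 to 0.26. Pgpep1, Emc10, Plxnd1, Gpnmb and Bhlhe41 were higher with GCA in every pair, by 0.25 to 0.81, and by 0.17 to 0.72 without number 4. Gcnt1, a glycosyltransferase of selectin ligands, and Skil, a repressor of TGF-beta signaling, were lower by 0.26 and 0.18 on the log2 scale. Malat1, a nuclear noncoding RNA, was at 1601, 2440 and 2592 CPM with TCA and at 1441, 1551 and 1656 CPM with GCA, and the transcript Gm37376 on its other strand was also lower (-0.51 and -0.41). The Malat1 samples overlapped, and the pair of number 3 differed less than those of numbers 4 and 5. The 2 transcripts cannot be told apart where counting ignored the strand. Gm45094, which overlaps Cebpg on the same strand, had 57 counts over the TCA samples and 11 over GCA, a log2 difference of -2.33.

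The named genes at the thresholds with no overlap were nearly all scarce. Apart from Egr1, the lower ones included Ankrd42 (27 counts over the 3 TCA samples and 5 over GCA), Spock2 (38 and 10), Lipc (96 and 39), Evpl (47 and 19), Pcnx2, Mir293, Gssos1, Gssos2 and RP23-350M23.5. The higher ones included Pla2g4c (31 and 72), Zfp521 (25 and 64), Rps15a-ps5 (26 and 60), Abhd14a, Iqch, Iqck, Ier5l, RP23-303A11.3 and RP23-358C4.3. Gssos1 and Gssos2 overlap each other and Gss, Mir293 lies within Nlrp12, and Rps15a-ps5 lies within Lrrc8d and is a pseudogene, so their counts may belong to another gene. Without number 4 the p of Abhd14a went from 0.0314 to 0.418.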

How the data were processed

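The labels give RNA-seq of 12 samples, and the submitters' processing notes name Trimmomatic 0.36, STAR 2.5.3a and featureCounts of Subread 1.5.1 on GRCm38. The authors deposited raw counts of reads per gene and RPKM values made from them. Whether strand was used or mates were counted singly is not given in the sources used here. RPKM values made again from the counts matched the deposited ones to within a relative 1.3e-06. The thresholds, p of 0.05 and a fold change of 2, are those of the authors' edgeR analysis.

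Here edgeR 4.0.16 in R 4.3.3 compared GCA with TCA on the counts with TMM scaling, filterByExpr by group and the robust quasi-likelihood test, with all 12 samples sharing the spread, and the script was tested on simulated data. CPM values are TMM-scaled. A gene under 3 counts in a sample (0.0725 to 0.0904 CPM) was taken as not detectable, which covers counting error only. Deviations of same-numbered GCA and TCA samples from their group means correlated at 0.517, 0.169 and 0.322 for numbers 3, 4 and 5 (11800 genes), so the numbers were taken to pair the samples. Different-numbered samples correlated at up to 0.216, and GCA number 4 correlated with TCA number 5 at 0.182. Limma 3.58.1, DESeq2 1.42.0 and other filters and scalings were alternatives.

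The comparison and the 27 gene lists were chosen with earlier results of these data known. The genes named were up to 10 each way of lowest p among those at the thresholds without overlap. Among them, predicted genes (such as Gm with a number, or names ending in Rik) were skipped, while clone names such as RP23-350M23.5 were kept. Also named were the 10 each way of lowest p with the block and list members at the thresholds. The highest member of each list per length was added, and genes of bile acid, glycine, taurine and p38 biology were fixed by name. All other genes named were chosen after their values were seen. Promoter sequences were matched by symbol. Some genes that the rule selects are not reported here.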

Additional observations from a re-analysis of the deposited data

How the results depend on the processing

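The count of genes at an unadjusted p under 0.05 and at least 2-fold, 74, moved to 168 with DESeq2, 261 without a filter, 41 with only the 2 groups, 7 with at least 10 counts in every sample and 13 with limma on log2(RPKM + 1). With each count halved, an alternative chosen after seeing the data because even counts prevailed, it was 16. Leaving out single samples or numbers gave 85 to 143, and it exceeded 1.5 times the reported count without number 3 of both groups (126), GCA number 3 (118), GCA number 5 (112), TCA number 3 (122) and, in the blocked 6-sample model, number 3 (143). The number of genes with an adjusted p under 0.05, 0 as reported, was 42 without a filter and 5 in the 6-sample model with the replicate block, and 0 to 73 when samples or numbers were left out. The counts above 0 among these came from the blocked 6-sample model without number 3 (73), number 4 (15) or number 5 (19), added after seeing the data, in which 2 pairs remained. The share of genes whose interval lay within 2-fold, 80.4%, was 44.6% with DESeq2 and 71.8% to 81.9% with samples left out. The replicate block over all 12 samples gave 78 genes at the thresholds and changed no count over all genes by over 1.5 times except that at an unadjusted p under 0.05. It moved the counts of single lists by at most 4 genes in a direction. The cause of these movements was not tested. Egr1, Fos and Ier2 stayed lower with GCA at an unadjusted p under 0.05 in all 25 alternatives, and Dusp1 in 23, with log2 differences of -1.39 to -1.03 for Egr1, -0.97 to -0.67 for Fos, -0.61 to -0.26 for Ier2 and -0.55 to -0.34 for Dusp1. No named gene changed direction while past the threshold.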

Other observations

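Same-numbered samples shared features beyond the treatment. In number 3 of every group Loxl2, a lysyl oxidase, was at 0.0574 CPM or less, while all samples with another number held 4.46 to 5.89 CPM. Gm27177, on the other strand of Loxl2, was at 0.197 to 1.44 CPM in number 3 and 6.38 to 8.19 CPM in the rest. No gene was at least 4-fold higher in number 3 of every group than in all other samples by the same rule. Xist was expressed in all samples, and its log2 difference between GCA and TCA was -0.08.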
